A study of Mus musculus with 18 samples.

Results

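The genes described here are 10 genes of mouse liver cells that are known to respond to pulses of growth hormone through the transcription factor STAT5 (STAT5B above all): Cyp2d9, Cyp4a12a, Cyp4a12b, Elovl3, Hsd3b5, Slco1a1, Ugt2b1, Ugt2b38, Selenbp2 and Serpina1e. They were found by symbol in a table of 18946 genes, where all 10 were listed, and all 10 passed the filter on low values that left 13895 genes to test. The livers came from 10 Old and 8 Young male mice of the inbred strain C57BL/6J, labelled as 19.76 and 6.18 months old; for the Old mice 20 and 21 months are also stated, in the design text and in the protocols. Every mouse had been fasted overnight and then infused with insulin and glucose in a hyperinsulinemic-euglycemic clamp, so that both ages share the infusion, and neither female mice nor mice without insulin infusion were compared. RNA was extracted with either of a pair of Qiagen kits, AllPrep for 5 Old and 3 Young livers and RNeasy for 5 Old and 5 Young livers, and libraries were made from RNA depleted of ribosomal RNA. Each library is 1 mouse, and replicate numbers follow the labels.

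Growth hormone is released in separate pulses in male mice and more evenly in female mice. It binds its receptor GHR on hepatocytes, which activates the kinase JAK2 and then STAT5B, and STAT5B enters the nucleus and switches on target genes with each pulse. Genes that need the pulses are expressed more in male than in female liver, the repressor CUX2 holds down male-biased genes in females and BCL6 female-biased genes in males, and the targets SOCS2 and CISH feed back on the receptor.

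Each library held between 85790735 and 127487820 reads on listed genes, as recovered from the deposited values. All values below are scaled TPM, the deposited TPM (reads per gene length, brought to the same total in every library) divided by a composition factor per library, which allows levels of different genes to be compared per length. The 14 listed hepatocyte markers were present in every library, with a summed level of 115958 to 165095 scaled TPM in Old and 106296 to 146669.5 in Young livers. Old replicate 14 stood apart: 30.9% of all genes tested were below every Young library there, against 10.1 to 20.2% in the other 9 Old libraries. Results are therefore also given without it. In bulk liver, fewer cells of a type and less RNA per cell cannot be told apart.

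All 10 genes had a lower mean in Old livers. With limma, a linear model fitted across all genes with age and kit as terms, 5 of the 10 were lower in Old livers at a Benjamini-Hochberg adjusted p under 0.05 and 0 were higher. Over all genes tested, 2.47% were lower and 2.44% were higher by the same rule, which is 343 and 339 genes (188 and 341 with no composition factor). The 5 were Ugt2b38, Selenbp2, Ugt2b1, Cyp4a12b and Serpina1e. The median log2 fold of the 10 was -1.52, against 0.004 over all genes tested. Without Old replicate 14 the median was -1.22, and 7 of the 10 were lower, with Cyp4a12a and Cyp2d9 added, where 3.35% of all genes were lower.

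**Figure D1:**
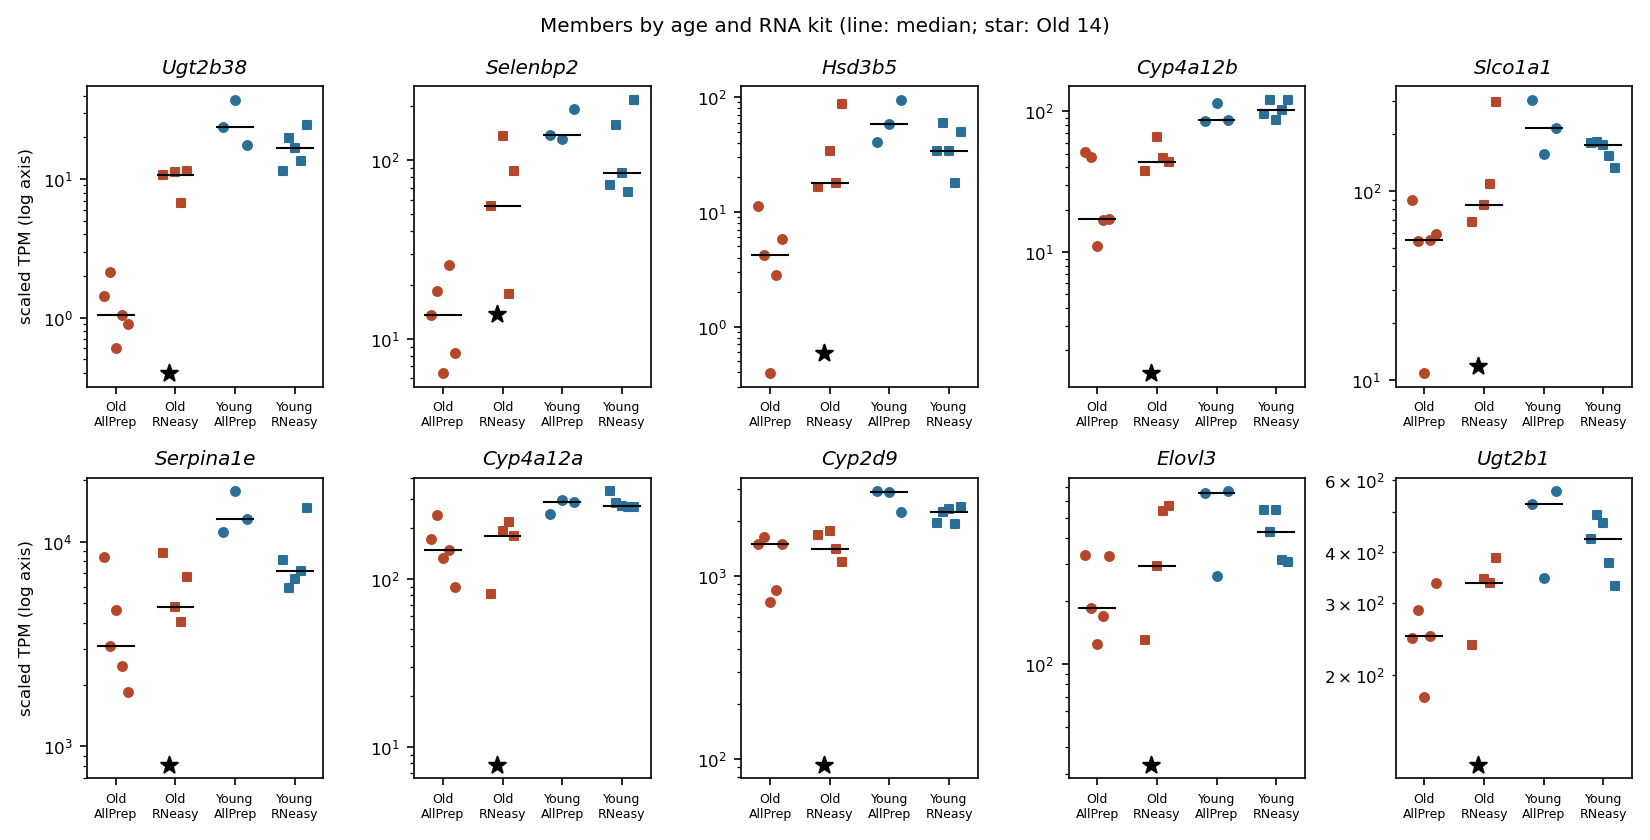
Scaled TPM (log axis) of each gene in every library, with Old livers left of Young livers and AllPrep left of RNeasy within an age. Each point is 1 mouse, the line is the median and the star is Old replicate 14. Ugt2b38 lies between 0.605 and 2.13 in the 5 Old AllPrep livers, below all other groups except Old replicate 14.

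Promoters of 4 of these genes are shown to let their sequence be read beside their change, together with that of Cish, a known direct STAT5 target. Each window covers 250 bases before to 50 bases after the start of the gene, from RefSeq on GRCm38.p6, 5′ to 3′ on the gene's own strand. Capitals mark TTCNNNGAA, the palindrome to which STAT5 binds, and ATTGAT or its reverse complement ATCAAT, which HNF6 and CUX2 bind; both motifs were searched on both strands and they do not overlap. The windows are Ugt2b38 at chr5:87424154-87424453 (minus strand) and Selenbp2 at chr3:94693323-94693622 (plus strand), shown for their large fall in Old livers. Ugt2b1 at chr5:86926454-86926753 (minus strand) and Serpina1e at chr12:103956848-103957147 (minus strand) are shown because they hold ATTGAT. Cish lies at chr9:107296409-107296708 (plus strand).
Ugt2b38: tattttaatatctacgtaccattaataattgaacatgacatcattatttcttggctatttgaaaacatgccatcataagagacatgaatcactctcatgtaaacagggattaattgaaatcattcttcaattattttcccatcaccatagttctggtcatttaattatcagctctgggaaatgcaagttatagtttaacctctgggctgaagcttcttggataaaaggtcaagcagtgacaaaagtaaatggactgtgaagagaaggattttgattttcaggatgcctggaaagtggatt
Selenbp2: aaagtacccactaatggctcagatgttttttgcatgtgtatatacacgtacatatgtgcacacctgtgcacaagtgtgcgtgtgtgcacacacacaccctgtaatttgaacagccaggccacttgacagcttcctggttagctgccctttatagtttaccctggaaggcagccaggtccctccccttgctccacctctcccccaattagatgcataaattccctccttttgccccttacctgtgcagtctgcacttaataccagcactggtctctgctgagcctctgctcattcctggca
Ugt2b1: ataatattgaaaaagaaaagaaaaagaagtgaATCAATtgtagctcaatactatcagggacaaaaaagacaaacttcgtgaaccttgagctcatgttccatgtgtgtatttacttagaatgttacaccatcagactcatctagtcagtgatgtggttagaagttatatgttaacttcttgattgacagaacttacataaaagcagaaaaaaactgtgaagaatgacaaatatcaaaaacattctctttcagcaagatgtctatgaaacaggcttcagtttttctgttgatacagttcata
Serpina1e: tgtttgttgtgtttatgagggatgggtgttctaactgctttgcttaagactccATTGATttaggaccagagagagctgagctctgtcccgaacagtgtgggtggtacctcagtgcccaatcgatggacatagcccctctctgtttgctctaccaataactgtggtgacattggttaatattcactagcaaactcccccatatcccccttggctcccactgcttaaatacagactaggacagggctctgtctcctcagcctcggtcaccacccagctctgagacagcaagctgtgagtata
Cish: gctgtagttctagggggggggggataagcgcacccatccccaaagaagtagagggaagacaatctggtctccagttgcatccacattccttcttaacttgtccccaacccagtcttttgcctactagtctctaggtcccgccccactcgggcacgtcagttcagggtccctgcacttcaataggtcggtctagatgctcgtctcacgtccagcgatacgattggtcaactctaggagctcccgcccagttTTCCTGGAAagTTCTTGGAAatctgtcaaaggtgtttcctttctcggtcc

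Of the 10 genes, 7 had a promoter in the RefSeq table, and Cyp4a12a, Cyp4a12b and Elovl3 did not match. TTCNNNGAA stood in 0 of these 7 windows and in 8.30% of the 32851 windows of all genes. In the Cish window it began at positions 251 and 262, counted from 1 at the 5′ end. ATTGAT stood in 2 of the 7 windows, from position 33 in Ugt2b1 and from position 54 in Serpina1e, and in 7.54% of all windows. These matches are letters in a short window near the start, and sites farther away, where STAT5 often binds, were not searched.

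Glucuronidation enzymes come first. Ugt2b38, a UDP-glucuronosyltransferase of a family that attaches glucuronic acid to steroids and drugs, had the largest fall. It had 0.605, 0.895, 1.05, 1.43 and 2.13 scaled TPM in the 5 Old AllPrep livers, against 17.6, 24.0 and 37.5 in the 3 Young AllPrep livers. In RNeasy livers it had 0.397, 6.72, 10.7, 11.2 and 11.4 scaled TPM in Old mice, the lowest being replicate 14, against 11.4, 13.5, 16.9, 19.8 and 24.6 in Young mice. The AllPrep ages were far apart, whereas the RNeasy ages met at their edges, with 1 Old liver at the level of the lowest Young liver. Its log2 fold over both kits was -2.52 ± 0.50 (SE; by limma, adjusted p = 0.0102), and 9 of 10 Old livers were below all Young livers. In AllPrep libraries alone the log2 fold was -3.95 ± 0.30 (SE; by limma, adjusted p = 0.00114), and in RNeasy libraries alone -1.44 ± 0.65 (SE; by limma, adjusted p = 0.531), or -0.74 without Old replicate 14. Of the windows of 100 bases in its longest transcript (GENCODE M21), 24.2% also occur in Ugt2b5, a relative with far more RNA, so that reads may have been split between them. Ugt2b5 itself averaged 825 ± 170.0 scaled TPM in Old and 1306 ± 254 in Young livers (SD, n = 10 and 8).

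Ugt2b1, another enzyme of the same family, had the smallest log2 fold of the 10 and passed the test. It had 120.5, 268 and 385 scaled TPM as the lowest, median and highest value in Old livers, against 329.7, 449.9 and 562 in Young livers. All 10 Old livers were below the Young median and 6 were below all Young livers. Its log2 fold was -0.75 ± 0.20 (SE; by limma, adjusted p = 0.0362; 0.0537 with no composition factor), and it passed in 11 of the 18 fits that left out 1 library. Within AllPrep and RNeasy its log2 folds were -0.89 and -0.65, or -0.38 within RNeasy without Old replicate 14. None of its windows of 100 bases occur in the 46 other genes compared.

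The cytochrome P450 genes form the next group. Cyp4a12b and Cyp4a12a encode fatty acid hydroxylases, which act on the last carbon of the chain and make the eicosanoid 20-HETE in mouse, and Cyp2d9 encodes a hydroxylase of testosterone. These 3 genes were the ones for which all 10 Old livers lay below all 8 Young livers, where 0.202% of all genes tested did so. Cyp4a12b had 1.38, 40.7 and 65.5 scaled TPM as the lowest, median and highest value in Old livers, against 85.5, 98.8 and 121 in Young livers. Its log2 fold was -2.02 ± 0.53 (SE; by limma, adjusted p = 0.0366), and it passed in 7 of the 18 fits that left out 1 library (limma adjusted p between 0.00493 and 0.0743). Within AllPrep it was -1.96 and within RNeasy -2.07, or -1.14 there without Old replicate 14.

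Cyp4a12a had 7.86, 160.5 and 240.2 scaled TPM in Old livers, against 242, 277 and 332 in Young livers, again as the lowest, median and highest. The ages did not overlap, but the highest Old liver, replicate 7, came within 2 scaled TPM of the lowest Young liver. Its log2 fold of -1.34 ± 0.47 did not pass (SE; by limma, adjusted p = 0.103), and without Old replicate 14 it was -0.86 ± 0.19 and passed (SE; by limma, adjusted p = 0.0135). Cyp2d9 had 93.1, 1444 and 1769 scaled TPM in Old livers, against 1929.5, 2278 and 2908 in Young livers. Its log2 fold was -1.27 ± 0.43 (SE; by limma, adjusted p = 0.0920), and without Old replicate 14 it was -0.83 ± 0.18 (SE; by limma, adjusted p = 0.0107). Both genes were called only in the 1 of the 18 leave-one-out fits that dropped this liver. Within AllPrep the log2 folds of Cyp4a12a and Cyp2d9 were -0.88 and -1.19, and within RNeasy -1.69 and -1.33, or -0.85 and -0.54 there without Old replicate 14.

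The pair Cyp4a12a and Cyp4a12b lie in 1 family cluster and share 35.8 and 36.2% of the windows of 100 bases in their longest transcripts, so the split of reads between them is uncertain. The ratio of Cyp4a12b to Cyp4a12a within a library had a median of 0.205 in Old livers (range 0.0832 to 0.463) and of 0.369 in Young livers (range 0.287 to 0.452). The lowest ratios, 0.0832 and 0.113, were in Old replicates 8 and 9. This ratio was looked at after the values of both genes were seen, and it has no test. Cyp2d9 shared 8.62% of such windows with the genes compared.

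The other steroid and lipid enzymes follow. Hsd3b5 encodes a member of the 3-beta-hydroxysteroid dehydrogenase family that in mouse liver reduces steroids. It had 0.393, 2.82, 4.22, 5.85 and 11.2 scaled TPM in Old AllPrep livers, against 40.9, 58.0 and 95.0 in Young AllPrep livers. In RNeasy livers it had 0.591, 16.4, 18.0, 34.1 and 87.1 scaled TPM in Old mice, against 17.8, 33.6, 34.0, 49.2 and 59.2 in Young mice. The AllPrep ages were wholly apart and the RNeasy ages overlapped, with Old replicate 17 above every Young RNeasy liver. The log2 fold over both kits was -2.37 ± 0.72 (SE; by limma, adjusted p = 0.0641). It was -3.93 ± 0.69 in AllPrep libraries alone (SE; by limma, adjusted p = 0.0334), and in RNeasy libraries alone -1.20 ± 0.96 (SE; by limma, adjusted p = 0.725), or -0.23 without Old replicate 14.

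Elovl3, an elongase of very long fatty acids, overlapped most between the ages. It had 33.1, 241 and 571 scaled TPM as the lowest, median and highest value in Old livers, against 264, 485 and 671 in Young livers. Old replicates 16 and 17 were above the Young median and 5 Old livers were below all Young livers. Its log2 fold of -1.08 ± 0.44 did not pass (SE; by limma, adjusted p = 0.148), and it passed in 0 of the 18 fits that left out 1 library (limma adjusted p between 0.0788 and 0.249). Within AllPrep it was -1.21 and within RNeasy -0.98, or -0.33 there without Old replicate 14.

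The last group holds a transporter, a binding protein and a secreted inhibitor. Slco1a1, the uptake transporter OATP1A1 for bile acids, steroid conjugates and drugs, had 10.9, 63.9 and 297 scaled TPM in Old livers, against 133, 178 and 304 in Young livers, as the lowest, median and highest. Old replicate 17 was close to the highest Young liver, and the other 9 were below all Young livers. Its log2 fold was -1.62 ± 0.48 (SE; by limma, adjusted p = 0.0612), and without Old replicate 17 it was -1.92 (limma adjusted p = 0.0175, the lowest of the 18 leave-one-out fits, where the highest was 0.128). Within AllPrep it was -2.27 and within RNeasy -1.13, or -0.49 there without Old replicate 14.

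Selenbp2, which encodes a selenium-binding protein known as a target of acetaminophen in mouse liver, had 6.42, 8.30, 13.6, 18.5 and 25.8 scaled TPM in Old AllPrep livers, against 132, 138 and 193 in Young AllPrep livers. In RNeasy livers it had 13.8, 17.7, 55.6, 87.3 and 136 scaled TPM in Old mice, against 66.3, 72.2, 84.3, 157 and 218 in Young mice. As for Hsd3b5, the ages were apart in AllPrep and overlapped in RNeasy, where 2 Old livers lay within the Young range. Its log2 fold over both kits was -2.23 ± 0.48 (SE; by limma, adjusted p = 0.0160), and it passed in 18 of 18 leave-one-out fits, as Ugt2b38 did. Within AllPrep it was -3.52 ± 0.40 (SE; by limma, adjusted p = 0.00630) and within RNeasy -1.27, or -0.86 there without Old replicate 14. The gene shares 21.2% of its windows of 100 bases with Selenbp1.

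Serpina1e, 1 of the mouse copies of the gene for alpha-1 antitrypsin, a secreted inhibitor of neutrophil elastase, was by far the most abundant of the 10. It had 813, 4347 and 8785 scaled TPM as the lowest, median and highest value in Old livers, against 5926, 9666 and 17615 in Young livers. All 10 Old livers were below the Young median, and Old replicates 5, 6 and 17 reached into the Young range. Its log2 fold of -1.43 ± 0.40 passed narrowly (SE; by limma, adjusted p = 0.0486), and it did not pass with limma-voom on recovered reads (limma adjusted p = 0.0563) or with no kit term (0.0554); it passed in 5 of the 18 leave-one-out fits. Within AllPrep it was -1.96 and within RNeasy -1.03, or -0.47 there without Old replicate 14. Of its windows, 14.3% also occur in the copy Serpina1c.

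The 10 genes differed in how the ages compared within a kit. In AllPrep livers 9 of the 10, all but Elovl3, had every Old value below every Young value, where 6.00% of all genes tested did. In RNeasy livers 3 did (Cyp2d9, Cyp4a12a and Cyp4a12b), against 1.62% of all genes, and the same 3 did without Old replicate 14, against 2.56%. In limma fits within AllPrep, 3 genes were lower (Ugt2b38, Selenbp2 and Hsd3b5), where 0.410% of all genes were. Within RNeasy 0 of the 10 were lower by limma, where 0.0432% of all genes were lower. At an unadjusted p under 0.05 the RNeasy fit had 3 of the 10, beside 1299 of the 13895 genes tested. Without Old replicate 14 the RNeasy fit had 1, Cyp4a12b, at a log2 fold of -1.14 ± 0.16 (SE; by limma, adjusted p = 0.0221), where 0.209% of all genes were lower. A two-sided exact permutation test of mean log2 level was run on the 10 genes alone, unadjusted. Within RNeasy this permutation test gave p = 0.00794 for Cyp2d9, Cyp4a12a and Cyp4a12b, with and without Old replicate 14. That is the lowest p the test can give there, with 252 regroupings or 126 without that liver. The unchanged p therefore says nothing about the weight of that liver. For Ugt2b38 the permutation p was 0.0159, or 0.0238 without that liver. For the others the permutation p was 0.0556 to 0.349 with it and 0.0952 to 0.698 without it. Within AllPrep the permutation p ran from 0.0179, the lowest that 56 regroupings allow, to 0.0714. The lowest p differs with group size, so these values cannot be ranked between the kits.

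**Figure D2:**
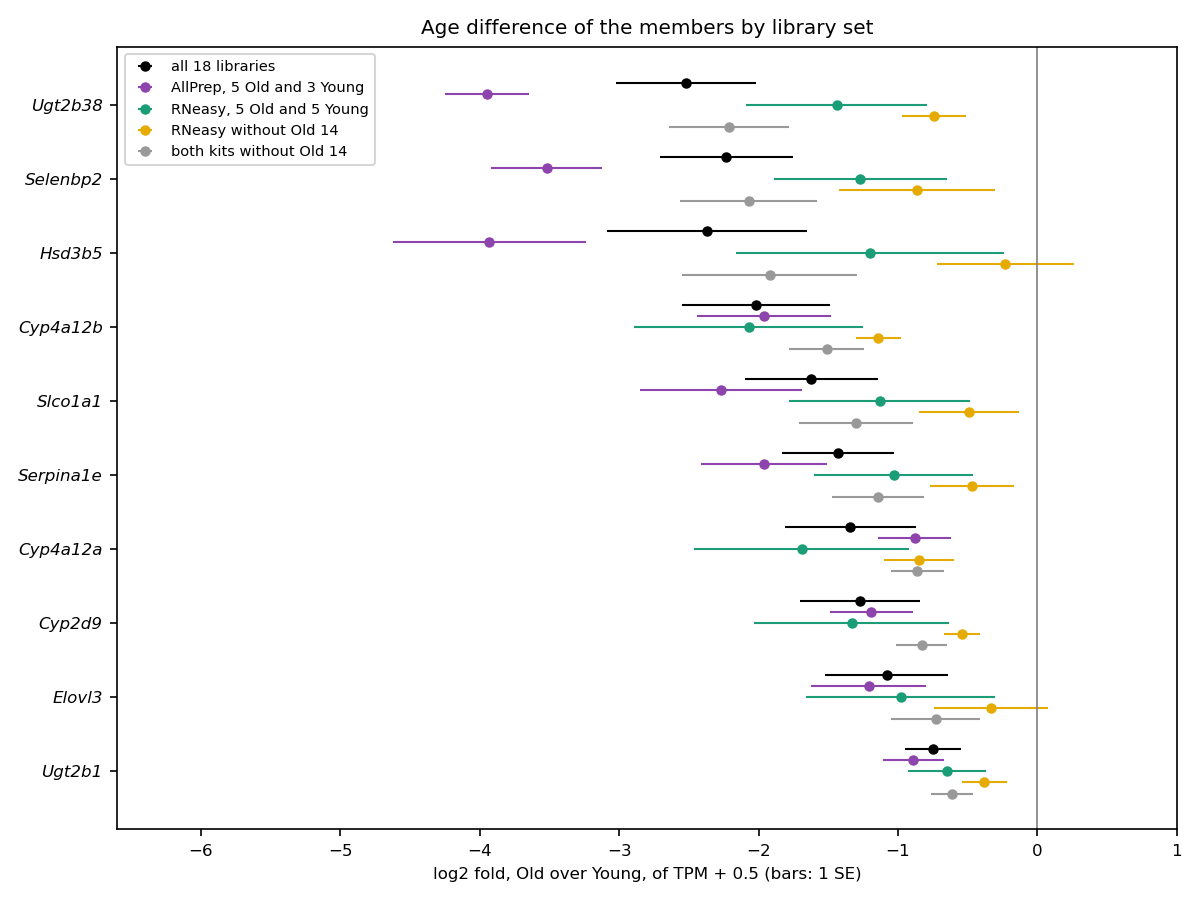
Log2 fold, Old over Young, of scaled TPM + 0.5 for each gene (rows), with bars of 1 SE, in 5 sets of libraries. For Ugt2b38, Selenbp2 and Hsd3b5 the AllPrep value (-3.95, -3.52 and -3.93) lies far left of the RNeasy value (-1.44, -1.27 and -1.20), while for Cyp4a12b both lie close together (-1.96 and -2.07).

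The difference between the kits was tested itself, as a kit by age term in limma. It called 0 of the 10 genes and 0% of all genes with all libraries, with 2 of the 10 and 587 of all genes at an unadjusted p under 0.05. Without Old replicate 14 it called Ugt2b38, at a log2 fold in RNeasy higher by 3.23 ± 0.40 than in AllPrep (SE; by limma, adjusted p = 0.00619), where 0.0216% of all genes were called. Hsd3b5 (3.71 ± 0.91 SE, limma adjusted p = 0.324) and Selenbp2 (2.65 ± 0.76 SE, limma adjusted p = 0.411) had large differences that did not pass. Slco1a1 (1.78 ± 0.72 SE, limma adjusted p = 0.540) and Serpina1e (1.49 ± 0.56 SE, limma adjusted p = 0.516) did not pass either. The rest lay between 0.03 ± 0.39 (Cyp4a12a) and 0.87 ± 0.62 (Elovl3). Among Old mice, 2 of the 10 genes, Ugt2b38 and Hsd3b5, had every AllPrep liver below every RNeasy liver other than replicate 14, where 8.84% of all genes tested did.

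Body weight moved with both age and kit. Old mice weighed 35.1 to 55.0 g at the clamp and Young mice 26.6 to 34.8 g, so the ranges did not meet. Among Old mice those of the AllPrep livers weighed 47.3 ± 5.53 g and those of the RNeasy livers 38.8 ± 4.28 g (SD, n = 5 each, two-sided exact permutation p = 0.0238). Among Young mice the AllPrep and RNeasy animals weighed 31.1 ± 4.17 and 29.6 ± 2.50 g (SD, n = 3 and 5, two-sided exact permutation p = 0.571). With weight as a further term 0 of the 10 genes were lower by limma, where 0 of all genes tested were lower and 3 higher. At an unadjusted p under 0.05 that fit had 5 of the 10, beside 1730 of the 13895 genes tested. Over all 10 genes the log2 folds of that fit ran between -2.42 and -0.74. The slope on weight passed for 0 of the 10, beside 10 of all genes. Kit and weight cannot be told apart among the Old mice, and the part of either in the age difference was not tested beyond these fits.

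The Old livers differed from each other. Old replicates 7, 8, 9 and 14 had all 10 genes below every Young liver, where 18.5, 20.2, 18.7 and 30.9% of all genes tested were. Old replicate 6 had 9 of the 10 below (11.7% of all genes), replicates 5 and 18 had 8 each (13.3 and 16.1%), replicate 16 had 7 (10.1%) and replicate 15 had 6 (12.8%). Old replicate 17 had 3, the P450 genes named above, beside 18.3% of all genes. Old replicate 14 was the lowest Old liver for 7 of the 10 genes and replicate 8 for the other 3, Hsd3b5, Slco1a1 and Selenbp2.

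**Figure D3:**
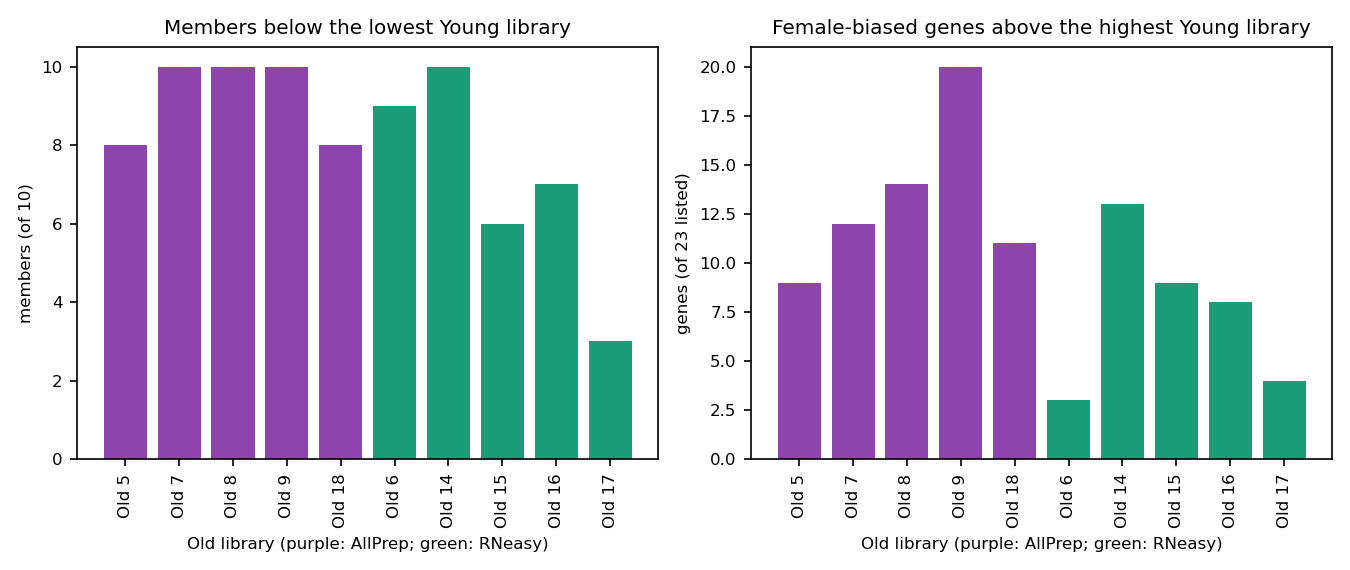
Left, number of the 10 genes whose level in an Old library (x axis) is below the lowest Young library; right, number of the 23 listed female-biased hepatic genes above the highest Young library. Bars are AllPrep (purple) and RNeasy (green) libraries. Old replicate 17 has 3 on the left and 4 on the right, and Old replicate 9 has 10 and 20.

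Over both kits the spread on the log2 scale was wider among Old than among Young livers for each of the 10. In scaled TPM the SD was smaller in Old livers for Selenbp2 (42.7, against 55.9 in Young livers) and Ugt2b38 (4.81 against 8.21). The same held for Serpina1e (2705 against 4256) and Ugt2b1 (82.3 against 84.8). On the log2 scale the SD of Cyp4a12a was 1.42 in Old and 0.13 in Young livers, and that of Cyp2d9 was 1.28 and 0.22. For Hsd3b5 it was 2.11 in Old and 0.71 in Young livers, and without Old replicate 14 it was still 1.96 in Old livers. For Cyp2d9 it was 0.46 in Old livers without that replicate. Within AllPrep the SD of Old livers was the smaller one for Elovl3 (0.62 in Old and 0.77 in Young livers), Ugt2b1 (0.34 and 0.38) and Ugt2b38 (0.48 and 0.54). Within RNeasy without Old replicate 14 it was the smaller one for Ugt2b38 (0.34 in Old and 0.43 in Young livers) and Serpina1e (0.50 and 0.51). These spreads were not tested.

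Over all 18 libraries the 10 genes varied together within an age and kit, but this rested largely on 1 liver. After subtraction of the mean of each age and kit, the 45 pairs had a median Pearson r of 0.74 over the 18 libraries, between 0.28 and 0.95. Without Old replicate 14 the median was 0.25 over 17 libraries, between -0.63 (Ugt2b1 with Serpina1e) and 0.82 (Elovl3 with Ugt2b1). Pairs with r over 0.5 numbered 39 with that liver and 13 without it. Hsd3b5, Slco1a1, Ugt2b1 and Elovl3, picked after these values were seen, kept r between 0.56 and 0.82 with each other, while Ugt2b38 kept 0.65 with Cyp4a12b, 0.62 with Selenbp2 and 0.60 with Cyp2d9. These are descriptions, since the libraries share kit, scaling and tissue makeup.

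**Figure D4:**
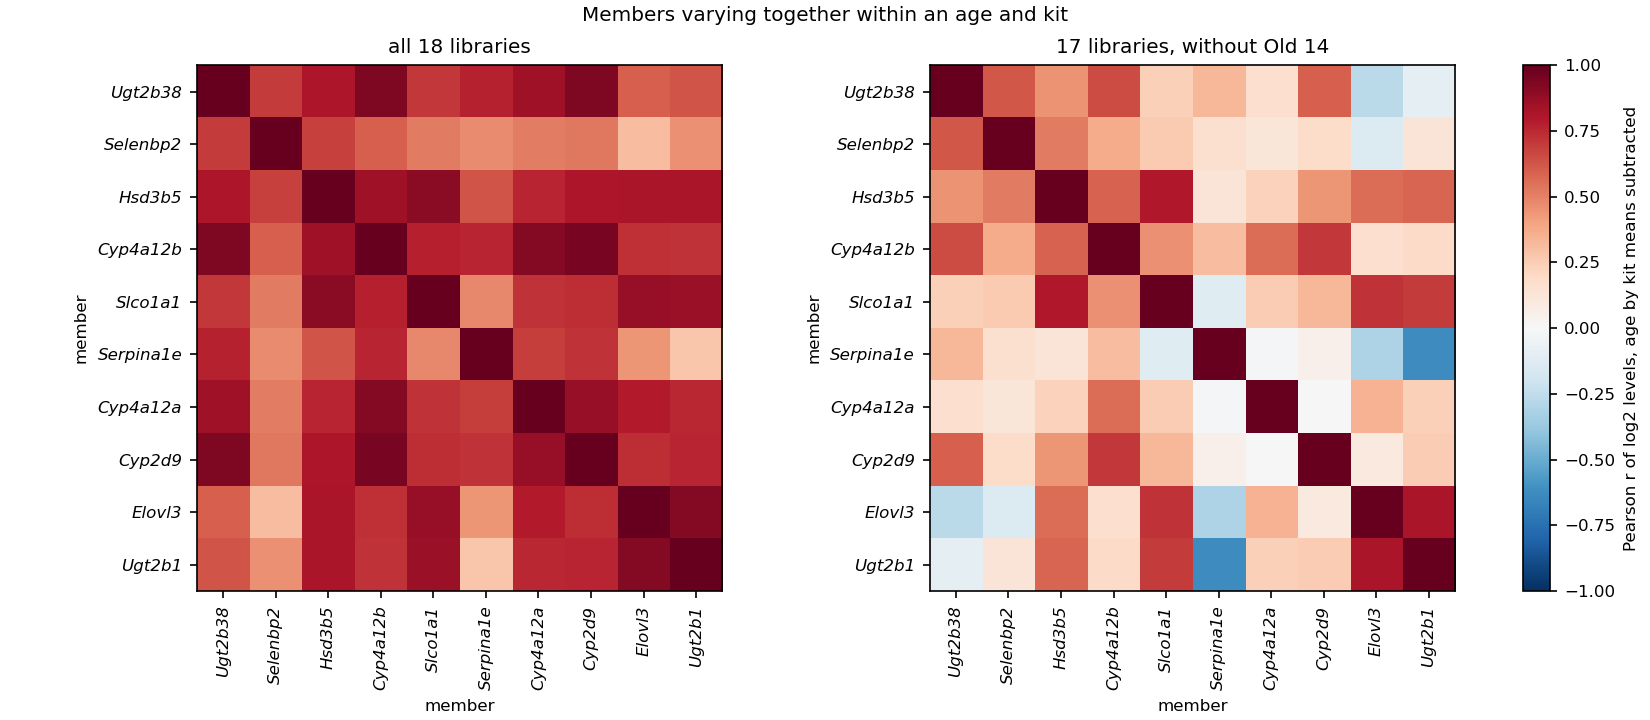
Pearson r between the 10 genes (rows and columns) of log2 levels after subtraction of age by kit means, over all 18 libraries (left) and the 17 without Old replicate 14 (right). Red is positive and blue negative; the median over the 45 pairs is 0.74 on the left and 0.25 on the right.

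Of the 9102 other genes whose mean level reached 2 on the log2 scale, the 8 most like the mean of the 10 over the 18 libraries were Mcm10 (r = 0.97), Serpina3k, Exosc2, Nxpe2 and Aadat (0.95 each), and Cyp4a10, Scp2 and Acsl1 (0.94 each). Mcm10 is a DNA replication factor, Serpina3k a secreted protease inhibitor, and Cyp4a10, Scp2 and Acsl1 are genes of fatty acid handling. Without Old replicate 14 their r lay between 0.57 and 0.78. None of the 8 passed the age test in limma, with Serpina3k closest at a log2 fold of -0.92 ± 0.27 (SE; by limma, adjusted p = 0.0531).

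Growth hormone pathway genes, from receptor to feedback, were set beside these values. Of 22 tested, 2 were lower and 2 higher in Old livers, with a median log2 fold of 0.10. Ghr, the receptor, had 87.9, 275 and 342 scaled TPM as the lowest, median and highest value in Old livers, against 192, 262 and 311 in Young livers, the lowest being Old replicate 14. Its log2 fold was -0.04 (limma adjusted p = 0.906). Stat5b had a log2 fold of 0.16 ± 0.09 (SE; by limma, adjusted p = 0.326), and Stat5a rose, at 0.43 ± 0.11 (SE; by limma, adjusted p = 0.0361).

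Socs2, the STAT5-induced inhibitor of the receptor, had 0.761, 2.06 and 3.33 scaled TPM as the lowest, median and highest value in Old livers, against 2.67, 4.17 and 6.54 in Young livers. It fell by 0.98 ± 0.20 on the log2 scale (SE; by limma, adjusted p = 0.0126), and 8 of the 10 Old livers were below all Young livers; Old replicate 14 was the highest. Socs3, an inhibitor induced by STAT3 and by insulin as well, fell by 1.68 ± 0.25 (SE; by limma, adjusted p = 0.00277), while Cish, the gene whose promoter holds 2 STAT5 motifs, had a log2 fold of -0.57 ± 0.26 and did not pass (SE; by limma, adjusted p = 0.20). Igf1, the circulating growth factor made in the liver, had -0.41 ± 0.24 and did not pass (SE; by limma, adjusted p = 0.330).

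Bcl6, a repressor known in mouse liver to bind many STAT5 sites, above all at female-biased genes in males, rose. It had 9.92, 29.8 and 45.8 scaled TPM as the lowest, median and highest value in Old livers, against 3.44, 9.75 and 26.9 in Young livers, with a log2 fold of 1.40 ± 0.37 (SE; by limma, adjusted p = 0.0386). The 5 Old AllPrep livers had 27.6 to 45.8, all above the highest Young liver, and Old RNeasy livers ran from 9.92 to 41.7 with Old replicate 14 the lowest. In that liver, where 7 of the 10 genes were at their lowest, Bcl6 was near the Young median. This is 1 liver, and the relation of Bcl6 to the 10 genes was not tested.

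**Figure D5:**
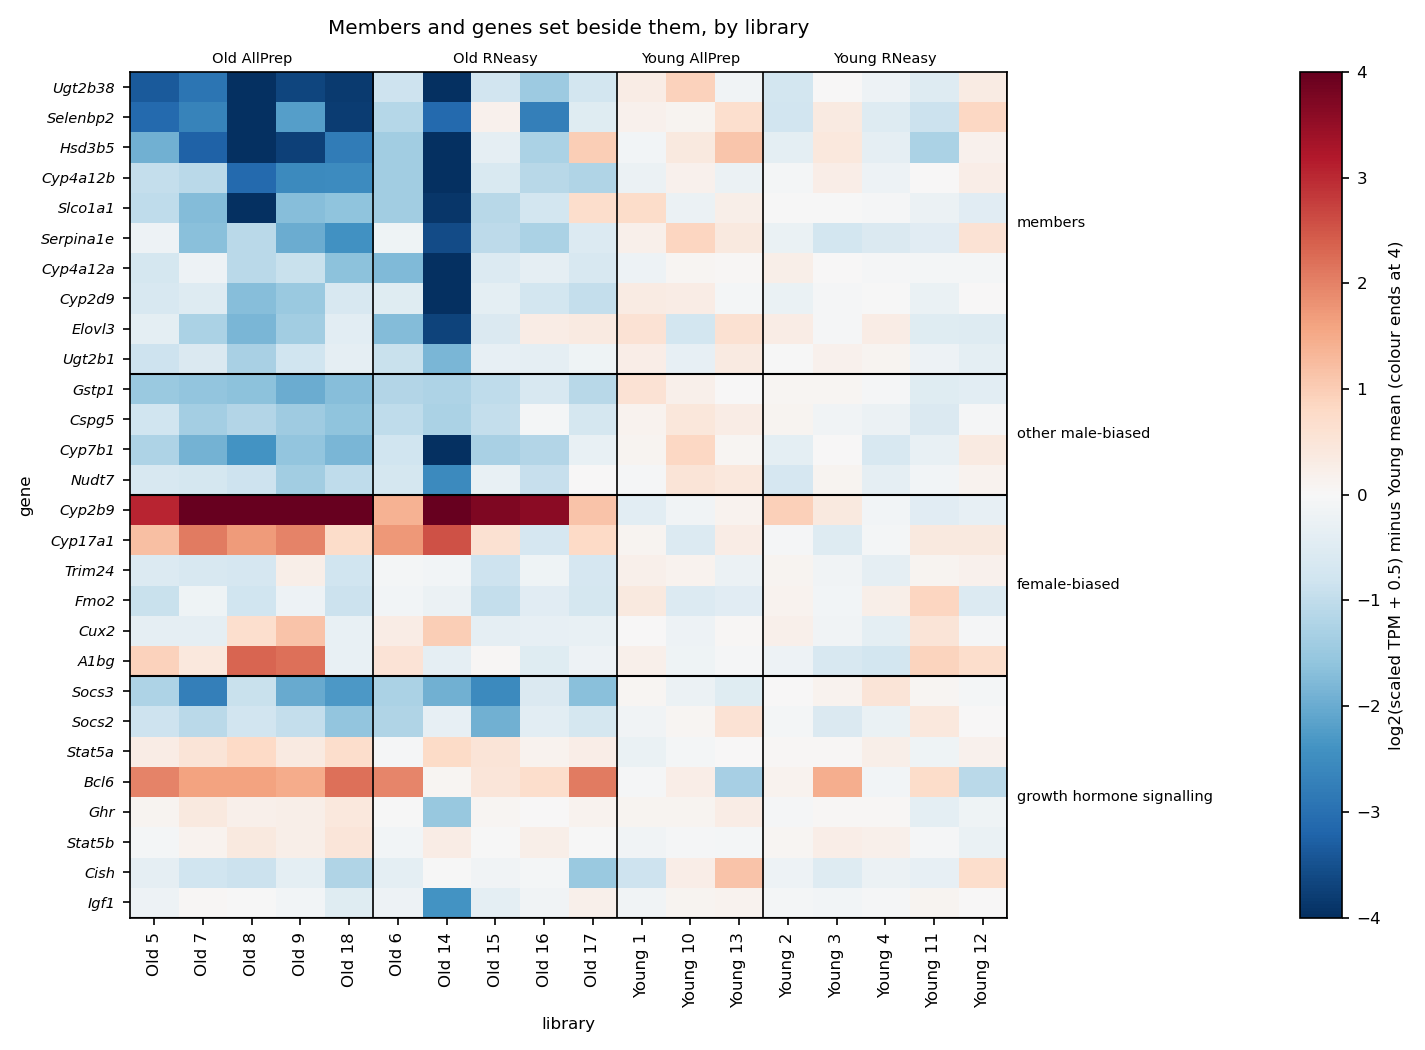
Log2(scaled TPM + 0.5) minus the Young mean (colour, ending at 4 in both directions) for the 10 genes and for the named male-biased, female-biased and growth hormone pathway genes (rows) in each library (columns, Old left of Young). The blocks of Ugt2b38 and Hsd3b5 are darkest blue in Old AllPrep livers and Old replicate 14, where Cyp2b9 is red, and Bcl6 in Old replicate 14 is near white.

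Other male-biased genes of the liver were mostly lower in mean log2 fold, at 12 of 13 tested. Of these 13 tested of a list of 14, 4 were lower and 0 higher in Old livers, and the median log2 fold was -0.96, or -0.62 without Old replicate 14. Gstp1, a glutathione transferase, fell by 1.33 ± 0.17 on the log2 scale (SE; by limma, adjusted p = 8.95e-04) with all 10 Old livers below all Young livers. Cyp7b1, an oxysterol hydroxylase, fell by 1.68 ± 0.38 (SE; by limma, adjusted p = 0.0199), and Cspg5, a proteoglycan, and Nudt7, a peroxisomal coenzyme A hydrolase, fell by 1.03 and 0.92. These lists were fixed with earlier results of these data known, and are described by their counts alone.

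Close relatives of the 10 genes come from the same families. Of 30 tested, 3 were lower and 0 higher, the median log2 fold was -0.10, and 13 were positive. All 3 were glucuronosyltransferases: Ugt2b35 fell by 0.68 ± 0.10 (SE; by limma, adjusted p = 0.00280), Ugt2b5 by 0.67 ± 0.14 (SE; by limma, adjusted p = 0.0122) and Ugt2b37 by 1.84 ± 0.47 (SE; by limma, adjusted p = 0.0331). Ugt2b37 was low, at 0.372 to 6.23 scaled TPM in Old livers, and Young replicate 10 had 51.6 against a Young median of 5.37. Its log2 fold was -3.02 within AllPrep and -0.96 within RNeasy, or -0.53 there without Old replicate 14. Hsd3b7, a bile acid enzyme, had a log2 fold of -0.31 and did not pass (limma adjusted p = 0.0667).

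Female-biased genes are held down by growth hormone pulses in male liver. Their levels in Young livers differed widely, with a median of 0.172 scaled TPM for Cyp2b9 and 61.4 for Acot3. Of 13 tested of 23 listed, 2 were higher and 0 lower in Old livers, and the median log2 fold was -0.09, or 0.09 without Old replicate 14. Of these 13, 7 had a negative log2 fold and 6 a positive one. Cyp2b9, a female-biased P450, had 1.11, 27.8 and 258 scaled TPM as the lowest, median and highest value in Old livers, against 0.0324, 0.172 and 0.909 in Young livers. All 10 Old livers were above all Young livers, and the 5 highest were Old replicates 14, 18, 8, 9 and 7, which include the 4 livers with all 10 genes below every Young liver. The 2 lowest Cyp2b9 levels were in Old replicates 17 and 6. Cyp17a1, a steroid hydroxylase, rose by 1.23 ± 0.33 (SE; by limma, adjusted p = 0.0401), and Trim24 (-0.43, limma adjusted p = 0.0916), Fmo2 (-0.51, 0.115) and A1bg (0.42, 0.494) did not pass. Cux2, the female-biased repressor, was not tested at 0.488 ± 0.462 scaled TPM in Old and 0.356 ± 0.171 in Young livers (SD, n = 10 and 8).

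Markers of other cell types were set beside these results. Hepatocyte markers had 0 of 14 called, with Alb at a log2 fold of 0.27 ± 0.21 (SE; by limma, adjusted p = 0.444). Kupffer cell and macrophage markers had 2 of 14 higher, Trem2 (1.24) and Gpnmb (2.47), and their summed level was 426 to 1388 scaled TPM in Old and 422 to 897 in Young livers. B and plasma cell markers had 1 of 8 higher (Jchain, 1.44), at a summed 135 to 236 in Old and 132 to 191 in Young livers. Endothelial (0 of 10), stellate cell and fibroblast (0 of 10), cholangiocyte (0 of 4) and T and NK cell markers (0 of 7) had none called by limma. Their summed levels were 172 to 257, 296 to 517, 24.0 to 89.1 and 6.77 to 24.7 scaled TPM in Old livers, against 167 to 226, 265 to 442, 26.7 to 65.7 and 5.62 to 14.4 in Young livers. No listed marker was at 0 in every library. The part of macrophage content in the fall of the 10 genes was not tested.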

How the data were processed

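RNA was sequenced from livers of 18 male mice after an insulin clamp. The authors deposited TPM, reads per gene length scaled to a total of 1000000 per library. Per the submitters' processing notes, STAR 2.7.9a, Subread and featureCounts were used, with the builds GRCm39 and mm10 named without a role; gene lengths, strand setting and annotation are not known here. TPM was divided by a trimmed mean of log ratios (30% and 5% trimmed). Genes reaching 0.5 TPM in 8 or more libraries entered the test with limma 3.58.1 (R 4.3.3, trend) on log2(TPM + 0.5), with age and kit as terms; folds on that scale understate changes of low genes. Adjusted p-values under 0.05 were counted. The fit and the recovery of reads were tested on simulated data. Whole reads came out for 18946 of 18946 genes (tolerance 1e-06), and limma-voom on them called 653 genes. A count of 0 allows up to 3 reads, counting error only. No pair of libraries of 1 age agreed within sampling noise (lowest chi-square per degree of freedom 75.1 in Old and 38.5 in Young). Permutation tests and correlations used Python 3.11.15, numpy 2.4.6 and pandas 2.3.3, and plots matplotlib 3.10.9.

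The 10 genes and all lists were chosen with earlier results of these data known. Named were all 10 genes, up to 4 genes of smallest p from each other list, Ghr, Stat5b, Socs2, Cish, Igf1, Bcl6, Cyp2b9, Cux2 and A1bg, and the 8 genes most like the 10. Alternatives covered the kit term, each kit, each library, scaling, pseudocount, filter, library weights, body weight and limma-voom. Promoters came from RefSeq and transcripts from GENCODE M21.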

Additional observations from a re-analysis of the deposited data

Results flagged for a closer look

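Old replicate 14 lay far below the other 9 Old livers for 3 of the P450 genes: Cyp2d9 at 93.1 scaled TPM (the next lowest Old liver had 719.8), Cyp4a12a at 7.86 (next 81.4) and Cyp4a12b at 1.38 (next 11.1). The gap was large against the whole range of the Old group on the log2 scale (Dixon's test). Of 20 groups looked at, 10 genes in each age, 3 were marked in this way, and chance marks about 1 in 20; all 3 marks are the same liver, so they are not independent.

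For Ugt2b38 the age difference differed between the kits once Old replicate 14 was left out. Its log2 fold, Old over Young, was higher by 3.23 in RNeasy than in AllPrep (limma kit by age term, adjusted p = 0.00619), and by 2.52 with that liver kept (limma adjusted p = 0.974). The Old mice of the AllPrep livers were also heavier, and the part of weight was not tested apart from kit.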

How the results depend on the processing

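No paired analysis was possible because no replicate number occurs in both ages. All 310 values of the 10 genes under the 31 alternatives were negative. Of the 10 genes, 5 were lower in the analysis as reported. The count was 3 in AllPrep libraries alone and with no composition factor, 0 in RNeasy libraries alone and with body weight as a term, 1 in RNeasy libraries without Old replicate 14, and 9 with library weights. It was 4 or 5 with no kit term, another scaling, pseudocount, filter or limma-voom. Leaving out 1 library gave 2 to 7. It was 2 without Young replicates 1, 2, 3, 4 or 13 or Old replicates 8 or 9, and 3 without Young replicates 10, 11 or 12 or Old replicate 18. Ugt2b38 and Selenbp2 passed in 18 of 18 such fits, Ugt2b1 in 11, Cyp4a12b in 7, Serpina1e in 5, Slco1a1 in 2, Cyp2d9, Cyp4a12a and Hsd3b5 in 1 each and Elovl3 in 0. The cause of these moves was not tested.

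Over all genes, lower and higher calls were 57 and 100 in AllPrep alone, 6 and 6 in RNeasy alone, 29 and 33 there without Old replicate 14, 0 and 3 with body weight, 697 and 704 with library weights, and 188 lower with no composition factor; leaving out 1 library gave 184 to 466 and 176 to 510. The kit by age term called 1 of the 10 genes without Old replicate 14 and 0 with no composition factor or a pseudocount of 0.1. The median r of the 10 genes was 0.25 without Old replicate 14.

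Among the other lists, family relatives had 1 lower in AllPrep alone, 5 with library weights, and 0 in RNeasy alone, with or without Old replicate 14, and with body weight; leaving out 1 library gave 2 to 5. Other male-biased genes had 0 lower under the same 3 settings and 2 to 6 with 1 library left out. Female-biased genes had 1 higher in AllPrep alone and with limma-voom, 0 in RNeasy alone, with or without Old replicate 14, and with body weight, and 1 to 3 with 1 library left out; 1 was lower with library weights, and 0 to 1 with 1 library left out. Growth hormone genes had 1 lower and 1 higher in AllPrep alone, 0 and 0 in RNeasy alone and with body weight, and 0 and 1 in RNeasy without Old replicate 14, with 0 to 3 higher when 1 library was left out. Markers of other cells had 1 lower in AllPrep alone, 0 higher in RNeasy alone, with or without Old replicate 14, and with body weight, and 2 to 5 higher with 1 library left out. For the 10 genes and the 16 other named genes that passed, all 806 log2 folds under these alternatives kept their sign. Some named genes that did not pass changed sign, Ghr, A1bg and Stat5b among them: Ghr had -0.04 as reported and 0.13 without Old replicate 14, A1bg 0.42 and -0.09 in RNeasy alone, and Stat5b 0.16 and -0.03 there without Old replicate 14. Of the 10 genes, Hsd3b5 and Ugt2b38 had the fewest reads, 27 and 42 in their lowest libraries, both Old, where counting error is widest.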

Other observations

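Values of further female-biased genes with high levels in some Old livers are given here. Others on the list went the other way in their medians, with overlapping ranges. Cyp2c40 had a median of 3.95 scaled TPM in Old and 9.49 in Young livers, and Cyp2c69 had 2.06 and 5.53. Sult2a2 and Cyp2b13 were too low in most libraries to be tested. Cyp2a4 and Hamp2 passed the filter and were not among the 2 female-biased genes called higher. Cyp2a4, a female-biased P450 that hydroxylates testosterone, had 3715 scaled TPM in Old replicate 14, 0.218 to 22.0 in the other 9 Old livers and 0.261 to 0.613 in Young livers. Its near-identical relatives make the assignment of its reads uncertain. Sult2a2, a sulfotransferase of steroids, had 76.2 scaled TPM in Old replicate 14, 0 to 1.01 in the other Old livers and 0 to 0.126 in Young livers. Cyp2b13 had 14.2 in Old replicate 14, 0 to 4.21 in the other Old livers and 0 to 0.0393 in Young livers. Hamp2, a relative of the iron hormone hepcidin, was high in other livers: it had 27.6, 20.5, 17.6 and 12.2 scaled TPM in Old replicates 7, 8, 18 and 9, all AllPrep, against 1.44 to 3.77 in the other 6 Old livers and 1.06 to 6.58 in Young livers.

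Counted over the whole list, Old replicate 9 had 20 of the 23 listed female-biased genes above every Young liver, where 19.7% of all genes listed were. Replicates 8, 14, 7 and 18 had 14, 13, 12 and 11 (21.1, 29.9, 16.5 and 14.1% of all genes). Replicates 5, 15 and 16 had 9, 9 and 8 (12.1, 15.8 and 9.98%), and replicates 17 and 6 had 4 and 3 (20.8 and 15.6%).

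When the genes most like the 10 were sought without Old replicate 14, the highest Pearson r over 17 libraries belonged to Nt5dc1 (0.87), Dnajc19 (0.79), Mcm10 (0.78) and Abcg2 (0.77), named after their values were seen. Abcg2, an efflux transporter, was itself lower in Old livers at a log2 fold of -0.39 (limma adjusted p = 0.0254).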
